A study of Mus musculus with 12 samples.

Results

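The 10 genes described here are the mouse Toll-like receptor genes Tlr1, Tlr2, Tlr3, Tlr4, Tlr5, Tlr6, Tlr7, Tlr8, Tlr9 and Tlr13, matched by symbol to their Ensembl identifiers among the 32783 genes of the count tables, and each of them is in both tables. The family was chosen by the counts of Tlr8, which were higher in the CD11b libraries of AAV-A2A animals, so the AAV-A2A to AAV-GFP difference of these genes in the CD11b fraction is given as a description without a test. RNA was sequenced from cells sorted with magnetic beads out of the hippocampus of male C57Bl6/J mice that had received an AAV2/9 vector into CA1 on both sides at 2 months of age, and that were studied 2 months later. The vector carried, behind the astrocyte promoter GfaABC1D, either the murine adenosine A2A receptor (AAV-A2A) or GFP (AAV-GFP), so that the control animals also carried a virus and a foreign protein. Beads against ACSA-2, an antigen of the astrocyte surface, gave the astrocyte-enriched fraction, and beads against CD11b, an integrin of microglia and other myeloid cells, were applied to the cells that ACSA-2 had not retained. Each fraction held 3 AAV-GFP libraries (GFP-303, GFP-306 and GFP-307 for ACSA-2, and GFP-2328, GFP-2329 and GFP-2331 for CD11b) and 3 AAV-A2A libraries (A2A-309, A2A-310 and A2A-313, and A2A-2343, A2A-2344 and A2A-2347). The study's supplement counts 3 animals per group for the sequencing of astrocytes. For the CD11b libraries the labels give each a number of its own, and where these were not separate animals the tests measure only the spread between libraries, which may be technical.

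Toll-like receptors are membrane proteins of innate immune cells that recognise microbial molecules or the products of damaged cells. Tlr1, Tlr2, Tlr4, Tlr5 and Tlr6 act mainly at the cell surface, Tlr2 for lipoproteins together with Tlr1 or Tlr6, Tlr4 for lipopolysaccharide and Tlr5 for flagellin. Tlr3, Tlr7, Tlr8, Tlr9 and Tlr13 belong to the endosomal group for nucleic acids and need the chaperone Unc93b1 to reach endosomes. Of these, Tlr3 acts on double-stranded RNA, Tlr7 on single-stranded RNA, Tlr9 on unmethylated CpG DNA and Tlr13 on bacterial ribosomal RNA. Most of them signal through the adaptor Myd88 and kinases of the Irak family, and Tlr3 signals through the adaptor Ticam1. Both routes lead to the ubiquitin ligase Traf6 and the transcription factors NF-kB and IRF. In the brain they are known mainly from microglia, and Tlr3 also from astrocytes.

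In GRCm38 the surface receptor genes lie at chr5:64924679-64933563 (Tlr1), chr3:83836272-83841767 (Tlr2), chr4:66827584-66930284 (Tlr4), chr1:182954788-182976044 (Tlr5) and chr5:64952031-64960097 (Tlr6). The endosomal receptor genes lie at chr8:45395665-45411080 (Tlr3), X:167304929-167330558 (Tlr7), X:167242696-167264329 (Tlr8), chr9:106222598-106226883 (Tlr9) and X:106143204-106160493 (Tlr13), and Tlr7 and Tlr8 are neighbours on the same strand. All are annotated as protein coding, with 3014 to 5556 bases of exon. Counts of Tlr1 and Tlr6, which are close paralogs, depend on reads that map to 1 place only, and 381 exon bases of Tlr3, or 7.32% of them, overlap Gm45542 on the opposite strand, where reads were discarded as ambiguous if the counting ignored strand.

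The bases just upstream of the start are shown for Tlr8 and Tlr9, endosomal receptors with the largest and the smallest log2 FC between the vectors in the CD11b libraries, whose RefSeq starts are the gene starts given above. RefSeq windows of GRCm38.p6 held 8 of the 10 members and no entry for Tlr4 and Tlr7. Each line gives the 250 bases before the start, 5′ to 3′ on the strand of the gene, with matches on either strand in capitals to GAGGAA (the core bound by PU.1 and other ETS factors), to GAAA and GAAA with 2 bases between them (an interferon response element) or to GGG and TTTCC with 2 bases between them (an NF-kB element).
Tlr8, chrX:167264330-167264579, minus strand: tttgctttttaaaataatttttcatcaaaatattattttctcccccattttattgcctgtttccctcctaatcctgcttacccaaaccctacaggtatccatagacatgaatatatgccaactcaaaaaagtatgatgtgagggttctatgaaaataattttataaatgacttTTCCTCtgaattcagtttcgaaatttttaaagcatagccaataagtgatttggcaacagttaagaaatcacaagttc
Tlr9, chr9:106222348-106222597, plus strand: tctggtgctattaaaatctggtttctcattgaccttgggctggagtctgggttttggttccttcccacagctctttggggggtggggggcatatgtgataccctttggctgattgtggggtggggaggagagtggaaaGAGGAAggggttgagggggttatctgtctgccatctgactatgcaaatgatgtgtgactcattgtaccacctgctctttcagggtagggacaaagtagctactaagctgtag
The capitals are a reverse GAGGAA in Tlr8, from 77 to 72 bases before the start, and a forward GAGGAA in Tlr9, from 112 to 107 bases before it. GAGGAA was in 23.3% of all 32851 promoter windows of this length, the interferon response element in 2.98% and the NF-kB element in 1.41%. Among the other members with a window, Tlr1 and Tlr13 held GAGGAA, Tlr3 the NF-kB element and Tlr6 overlapping matches to the interferon response element. The windows of Tlr1, Tlr2, Tlr3, Tlr6 and Tlr13 lie partly or wholly inside the gene coordinates given above, because their RefSeq starts differ from them. A match describes the letters of the window and says nothing of a factor's binding here.

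Total counts on genes were between 33937067 and 53206974 per library, and a level is given as CPM, read counts relative to the library size after TMM scaling within the fraction. The labels of the fractions matched their markers, with 23650 to 38510 summed CPM of 9 astrocyte genes in the ACSA-2 libraries and 271 to 501 in the CD11b libraries, and with 588 to 999 summed CPM of 15 microglia genes in the ACSA-2 libraries and 13541 to 95386 in the CD11b libraries. The CD11b libraries were not of the same composition. Ttr, the transthyretin gene of the choroid plexus, took 8.05% of the counts in GFP-2328, 6.41% in GFP-2329 and 2.80% in A2A-2347, and 0.000493 to 0.00726% in GFP-2331, A2A-2343 and A2A-2344. In the libraries with Ttr over 1% the summed microglia markers were 13541, 27400 and 33248 CPM, and in the others 92140, 95386 and 68835 CPM, in the order given. Erythrocyte genes were higher in all AAV-GFP libraries of this fraction (988 to 6137 summed CPM) than in the AAV-A2A libraries (61.6 to 242 CPM), with Hbb-bs as the most abundant. Endothelial markers were also higher in all AAV-GFP libraries (560 to 1437 against 314 to 379 summed CPM). So were ependymal markers (179 to 425 against 39.9 to 143 CPM) and neuronal markers (23.8 to 107 against 5.27 to 10.6 CPM). The other marker lists overlapped between the vectors in this fraction. In bulk samples a lower share of microglia and less RNA per microglial cell cannot be told apart, and the fraction and the count table cannot be told apart either.

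The overexpressed gene was checked first. Adora2a, which encodes the A2A receptor, was at 24.5, 23.0 and 25.1 CPM in the ACSA-2 AAV-GFP libraries and at 757, 656 and 945 CPM in the AAV-A2A libraries (log2 FC 5.02, SE 0.21, edgeR quasi-likelihood test, adjusted p = 1.6e-05). In the CD11b libraries it was at 3.96 to 8.07 CPM with AAV-GFP and at 16.3 to 43.3 CPM with AAV-A2A (log2 FC 2.20, SE 0.54, edgeR, adjusted p = 0.28). The labels of the vectors matched the gene in each ACSA-2 library.

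The first question was in which fraction the receptors were expressed. Levels in CPM were scaled in each fraction separately, and the differences were fitted on the genes of both tables with a joint scaling. Apart from Tlr8, 7 receptors passed the filter on low counts in each fraction on its own. In AAV-GFP animals 6 of these 7 were higher in the CD11b libraries than in the ACSA-2 libraries, with log2 differences of 4.13 (Tlr4) to 6.25 (Tlr13), while 13% of the 16980 tested genes were called higher and 12.7% lower (edgeR, adjusted p under 0.05 and absolute log2 FC over 0.32). In AAV-A2A animals the same 6 receptors were called higher, with differences of 5.39 (Tlr4) to 9.77 (Tlr13), where 25.2% of 16658 genes were higher and 21.4% lower. Tlr3 was not called in either comparison. Tlr5 and Tlr9 were also called higher in both, but they passed the filter only through the CD11b libraries, so they had to differ and are not counted. The 15 microglia markers differed by 1.95 (Sall1) to 7.57 (Tmem119) in AAV-GFP animals, with a median of 5.86, and the median of the 7 receptors was 4.63. In AAV-A2A animals these medians were 6.32 and 7.0, and over all tested genes they were 0.09 and 0.06.

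Among the surface receptors, Tlr2 was the most abundant per kilobase of exon. It was at 42.8 ± 30.9 CPM per kb (SD, n = 3) in the CD11b libraries of AAV-GFP animals and at 101.7 ± 29.8 in those of AAV-A2A animals, and at 1.71 ± 1.28 and 1.64 ± 0.767 in the ACSA-2 libraries. Its log2 difference between fractions was 4.63 (SE 0.81, edgeR, adjusted p = 0.0093) with AAV-GFP and 5.93 (SE 0.56, edgeR, adjusted p = 0.00025) with AAV-A2A. Tlr1 and Tlr6, the partners of Tlr2, were at 7.55 ± 6.79 and 4.12 ± 3.67 CPM per kb in the AAV-GFP CD11b libraries. Their spread between libraries overlapped, while within each CD11b library Tlr1 was above Tlr6 per kb. Tlr4 was at a similar level, 6.21 ± 4.78 CPM per kb. Tlr5 was the lowest surface receptor, at 0.875 ± 0.840 CPM per kb, and it was nearly absent from the ACSA-2 libraries of AAV-GFP animals, with 1 count in 3 libraries against 519 in the CD11b libraries. That is a ratio of 461 (95% exact counting interval 82.3 to 18224, which covers counting error only), and the fitted difference of 8.46 depends on how low counts are handled.

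Of the endosomal receptors, Tlr13 and Tlr7 led the CD11b libraries, at 21.0 ± 20.1 and 20.5 ± 18.9 CPM per kb with AAV-GFP and at 69.1 ± 22.8 and 54.5 ± 18.4 with AAV-A2A (SD, n = 3). These neighbours in the order did not differ beyond their spread. In the ACSA-2 libraries Tlr13 was at 0.271 ± 0.353 and 0.0774 ± 0.0282 CPM per kb. Its log2 difference between fractions in AAV-A2A animals was the greatest among the 10 receptors, 9.77 (SE 0.56, edgeR, adjusted p = 0.00016). Tlr9 was lower, at 1.17 ± 1.19 and 1.87 ± 0.941 CPM per kb in the CD11b libraries and with 0 to 9 counts in each ACSA-2 library. A library without a count allows up to 0.0664 to 0.0890 CPM in the ACSA-2 fraction, the level of 3 counts. Tlr8 had the lowest mean per kilobase in the CD11b libraries, at 0.160 ± 0.0493 CPM per kb with AAV-GFP and 1.34 ± 0.384 with AAV-A2A, where it did not differ from Tlr9 beyond their spread and was above Tlr9 in A2A-2347 (1.79 against 0.805 CPM per kb), and at 0.0702 ± 0.0749 and 0.113 ± 0.0878 in the ACSA-2 libraries. Its log2 difference between fractions was 1.12 (SE 1.07) with AAV-GFP and 3.50 (SE 0.98) with AAV-A2A (0.60 to 2.48 and 2.98 to 3.99 with libraries left out), given without a test because the CD11b levels of Tlr8 chose the list.

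Tlr3 was the exception among the 7 receptors counted above. Tlr12, a Tlr gene outside the 10, was also not called with AAV-GFP (log2 difference 1.22, SE 0.66, edgeR, adjusted p = 0.21). With AAV-A2A it was called higher in CD11b (4.2, SE 0.45, edgeR, adjusted p = 0.00039). Tlr3 was at 45.2, 58.3 and 44.6 CPM in the AAV-GFP libraries of the ACSA-2 fraction and at 41.3, 31.1 and 74.8 CPM in the AAV-A2A libraries. In the CD11b fraction it was at 24.2, 27.4 and 57.1 CPM with AAV-GFP and at 88.6, 134 and 82.3 CPM with AAV-A2A. The 2 fractions overlapped in AAV-GFP animals, and every CD11b library was above every ACSA-2 library in AAV-A2A animals. The log2 difference, CD11b minus ACSA-2, was -0.47 (SE 0.40, edgeR, adjusted p = 0.41) with AAV-GFP and 1.02 (SE 0.41, edgeR, adjusted p = 0.075) with AAV-A2A. Tlr3 supplied 75.6 to 89.7% of the counts of the 10 receptors in the ACSA-2 libraries and 7.0 to 14.6% in the CD11b libraries. Per 100000 counts of microglia markers, Tlr3 had 3525 to 12724 counts in the ACSA-2 libraries and 61.9 to 248 in the CD11b libraries, ranges that do not overlap. Tlr2 had 249 to 1202 and 254 to 620, and Tlr7 2.68 to 347 and 186 to 438, ranges that do overlap.

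The calls in AAV-GFP animals depended on single libraries. Without GFP-303 or without GFP-306 of the ACSA-2 fraction, 2 of the 7 receptors were called higher in CD11b. Calls over all genes fell too, to 942 of 18062 and 846 of 18004 higher, from 2215 of 16980 in the full fit. The receptors no longer called kept log2 differences of 4.22 (Tlr4) to 5.87 (Tlr13), with adjusted p of 0.050 to 0.078 (edgeR). Tlr2 was called with each of the 6 libraries left out in turn. Tlr3 was lower in CD11b without GFP-2331 (log2 difference -1.01, edgeR, adjusted p = 0.018) and was at 0.26 without the CD11b libraries with Ttr over 1%, GFP-2328 and GFP-2329, a value from GFP-2331 alone against 3 ACSA-2 libraries. In AAV-A2A animals Tlr3 was called higher in CD11b without A2A-313 (log2 difference 1.5, edgeR, adjusted p = 0.027) and without A2A-2347, the library with Ttr over 1% (1.20, edgeR, adjusted p = 0.046).

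**Figure D1:**
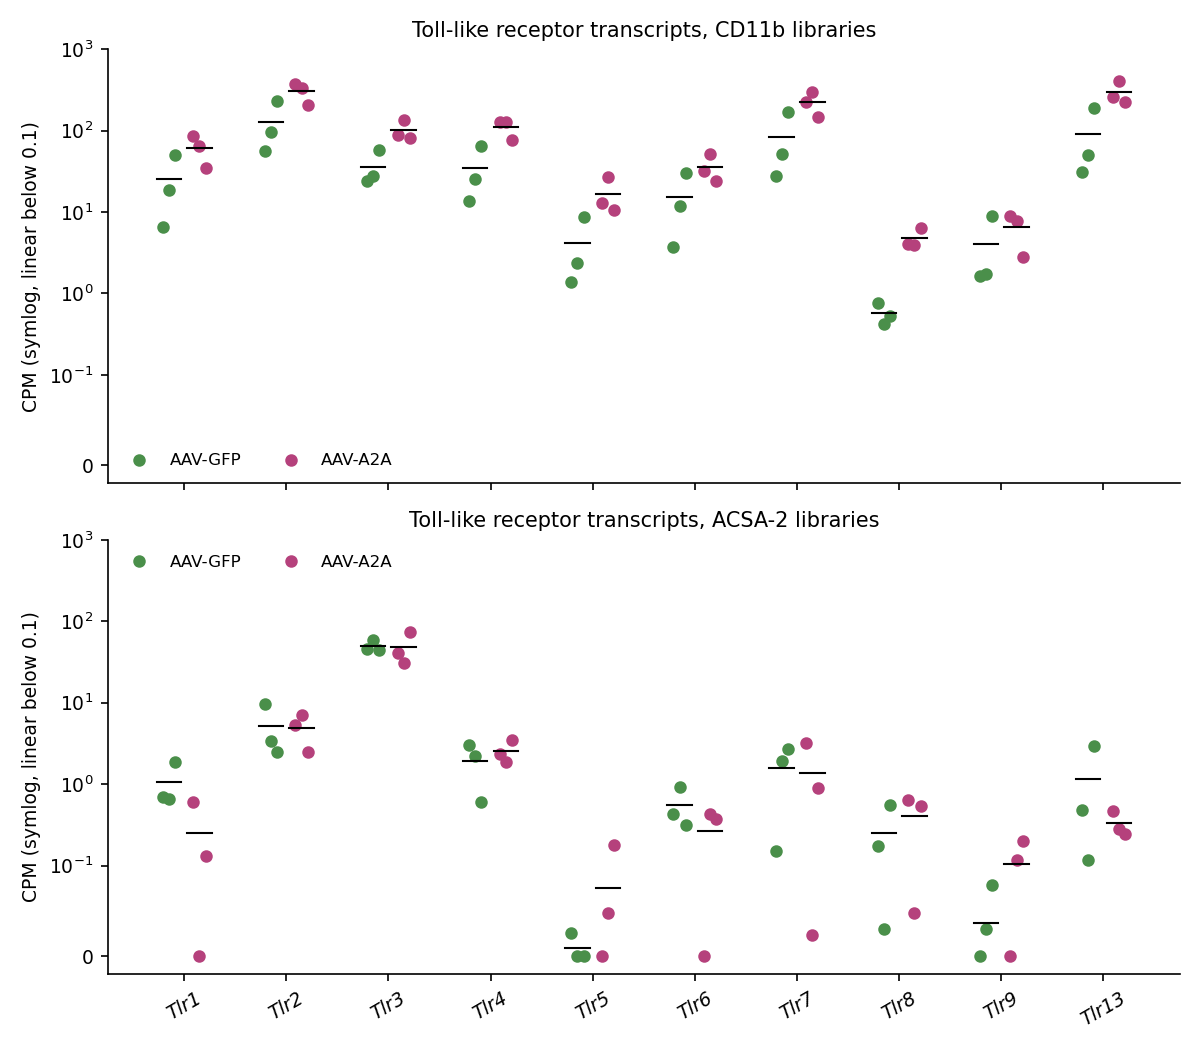
Level of each Toll-like receptor in each library, in CPM on an axis that is logarithmic above 0.1 and linear below, for the CD11b (top) and ACSA-2 (bottom) fractions, with AAV-GFP in green, AAV-A2A in pink and bars at the mean of 3 libraries. Tlr3 sits between 31.1 and 74.8 CPM in the ACSA-2 libraries, where every other receptor is below 10 CPM, and the Tlr8 points of the CD11b fraction are at 0.422 to 0.769 and at 3.99 to 6.41 CPM.

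**Figure D2:**
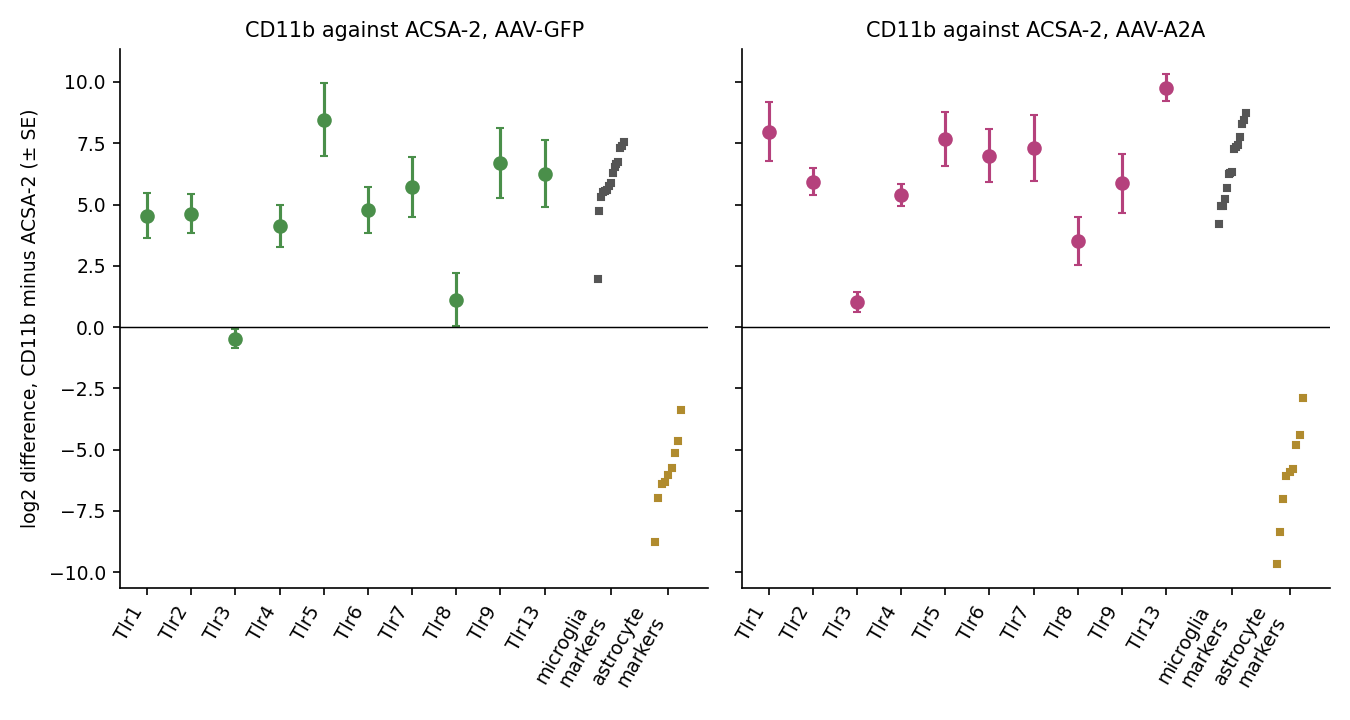
Log2 difference of each receptor between the fractions (CD11b minus ACSA-2, error bars are SE of the edgeR fit) in AAV-GFP and AAV-A2A animals, beside the single microglia and astrocyte markers (squares). Tlr3 at -0.47 and 1.02 and Tlr8 at 1.12 and 3.50 lie below the other receptors, which lie at 4.13 or more.

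The second question was whether the receptors changed with AAV-A2A in the ACSA-2 fraction, the fraction of the transduced cells. Of the 10 receptors 8 passed the filter on low counts there, and Tlr5 and Tlr9, with 0 to 8 and 0 to 9 counts per library, did not. None of the 8 was called by edgeR's quasi-likelihood test (lowest adjusted p = 0.64), 0 of them had an unadjusted p under 0.05, and DESeq2 and limma-voom also called 0. Over all genes 3.36% of 16451 were called, 29 higher and 524 lower.

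Tlr3, the only receptor with a level above 10 CPM in this fraction, was at 49.4 ± 7.77 CPM with AAV-GFP and at 49.1 ± 22.9 CPM with AAV-A2A (SD, n = 3; log2 FC -0.01, SE 0.31, edgeR, adjusted p = 0.997). A2A-313 was the highest and A2A-310 the lowest of the 6 libraries, both with AAV-A2A. Tlr2 was at 9.58, 3.35 and 2.49 CPM with AAV-GFP and at 5.27, 7.07 and 2.48 CPM with AAV-A2A (log2 FC -0.06, SE 0.62, edgeR, adjusted p = 0.99). Tlr4 was at 3.03, 2.22 and 0.603 CPM and at 2.33, 1.87 and 3.52 CPM (log2 FC 0.40, SE 0.76, edgeR, adjusted p = 0.92). The groups overlapped for all of these.

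The other receptors were present at few reads. Tlr1 had 28, 22 and 71 counts with AAV-GFP and 22, 0 and 6 with AAV-A2A (log2 FC -2.11, SE 1.43, edgeR, adjusted p = 0.64), and it was the only 1 of the 10 receptors with all AAV-A2A libraries below all AAV-GFP libraries in CPM, against 10.9% of the tested genes. Tlr13 had 19, 4 and 111 counts and 17, 12 and 11 counts (log2 FC -1.80, SE 1.25, edgeR, adjusted p = 0.65), and without GFP-307 its log2 FC was 0.15. Tlr6 had 0 to 31 counts, Tlr7 1 to 116 and Tlr8 1 to 24 per library, with log2 FC of -1.03, -0.20 and 0.67 and SE of 1.35, 1.40 and 1.33. With errors of this size a change of several fold in these genes was not detectable in the ACSA-2 libraries.

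The third comparison, AAV-A2A against AAV-GFP in the CD11b fraction, is the contrast from which the list came, and its values are a description. All 10 receptors passed the filter and all had a positive log2 FC, from 0.68 for Tlr9 to 3.06 for Tlr8. The edgeR test called 0 of the 16949 genes tested in this fraction (2704 had an unadjusted p under 0.05), limma-voom called 0 and DESeq2 502, or 2.9% of the genes to which it gave an adjusted p. All AAV-A2A libraries were above all AAV-GFP libraries for 5 receptors, Tlr3, Tlr4, Tlr5, Tlr8 and Tlr13, and for 12.6% of all tested genes.

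Tlr8 had 39, 18 and 21 counts in GFP-2328, GFP-2329 and GFP-2331 and 149, 141 and 348 counts in A2A-2343, A2A-2344 and A2A-2347. In CPM these were 0.769, 0.422 and 0.533, and 4.06, 3.99 and 6.41. The groups did not overlap, and the log2 FC of 3.06 (SE 0.56) is a fold of 8.34. Within the libraries with Ttr under 1% (GFP-2331 against A2A-2343 and A2A-2344) the log2 FC was 2.91, and within those with Ttr over 1% (GFP-2328 and GFP-2329 against A2A-2347) it was 3.43, in fits where a lone library is assumed to vary like the other group. Leaving out each library in turn gave 2.81 to 3.33. These fits and the splits use the libraries by which Tlr8 was chosen, so their likeness is a description and no support.

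Within each vector group the libraries were ordered differently by Tlr8 and by microglia markers, a description from 3 libraries per group. Among the AAV-GFP libraries it was highest in GFP-2328, which had the lowest sum of microglia markers, and among the AAV-A2A libraries in A2A-2347, again the lowest. Per 100000 counts of the 15 microglia markers, Tlr8 was at 5.68, 1.54 and 0.578 with AAV-GFP and at 4.26, 5.79 and 19.3 with AAV-A2A. On this scale the groups overlapped, since GFP-2328 was above A2A-2343, and the log2 FC was 1.92 (SE 1.27), where the median of all tested genes was -1.15. Markers of border macrophages summed to 58.7 to 238 CPM with AAV-GFP and 166 to 279 CPM with AAV-A2A, those of monocytes and neutrophils to 141 to 607 and 163 to 635 CPM, and those of dendritic and B cells to 25.4 to 130 and 74.0 to 175 CPM. All of these overlapped between the vectors, and no gene of the 3 lists was at 0 in every library. Their part in the Tlr8 difference was not tested, nor was that of the erythrocyte, endothelial, ependymal, neuronal and choroid plexus reads.

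Tlr7, the neighbour of Tlr8 on X, was at 27.4, 51.7 and 171 CPM with AAV-GFP and at 226, 296 and 146 CPM with AAV-A2A (log2 FC 1.41, SE 0.70). Its groups overlapped, A2A-2347 being below GFP-2331. Per 100 reads of Tlr7, the AAV-GFP animals gave 2.81, 0.818 and 0.311 reads of Tlr8 and the AAV-A2A animals 1.80, 1.35 and 4.4, so that this ratio overlapped as well. Tlr13 was at 30.6, 50.8 and 189.5 CPM and at 261, 408 and 223 CPM (log2 FC 1.72, SE 0.72), without overlap. Tlr3 was also without overlap (log2 FC 1.49, SE 0.42). Tlr9 was at 1.64, 1.71 and 8.83 CPM and at 8.99, 7.72 and 2.80 CPM (log2 FC 0.68, SE 0.84), and its groups overlapped widely.

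The surface receptors had log2 FC of 2.00 for Tlr5, 1.68 for Tlr4, 1.29 for Tlr1, 1.25 for Tlr2 and 1.22 for Tlr6. Tlr4 was at 13.6, 25.5 and 64.4 CPM with AAV-GFP and at 127, 127 and 76.9 CPM with AAV-A2A. Tlr2 was at 56.3, 97.2 and 234 CPM and at 379, 334 and 206 CPM, with A2A-2347 below GFP-2331. In each vector group the libraries with Ttr over 1% held the lowest levels of all 9 receptors other than Tlr8. Within the libraries with Ttr under 1% the log2 FC of the receptors other than Tlr8 lay between -0.08 (Tlr9) and 1.18 (Tlr5), and within those with Ttr over 1% between 0.75 (Tlr9) and 2.49 (Tlr5). Without GFP-2331 the log2 FC was 1.97 for Tlr9, 3.15 for Tlr5, 2.5 for Tlr7 and 2.87 for Tlr13.

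Per 100000 counts of microglia markers, the AAV-GFP libraries lay close together for Tlr7, at 202, 189 and 186 counts, and for Tlr13, at 226, 185 and 206, although their marker sums differed several fold. Tlr5 was as close (8.74 to 10.2). The others were spread more widely, at 48.8 to 68.0 for Tlr1, 69.9 to 100 for Tlr4 and 27.4 to 43.5 for Tlr6. Tlr2 was at 254 to 416, Tlr3 at 61.9 to 179, Tlr9 at 6.25 to 12.1 and Tlr8 at 0.578 to 5.68. The AAV-A2A libraries were at 237, 430 and 438 counts for Tlr7 and at 274, 593 and 671 for Tlr13. On this scale Tlr1, Tlr4, Tlr5, Tlr7 and Tlr13 were without overlap between the vectors and the other 5 receptors overlapped. All AAV-A2A libraries were higher for 0.885% of the tested genes, a share that the scaling itself lowers by moving all genes down, so nothing is read from it. The log2 FC fitted on this scale were 0.75 (SE 0.77) for Tlr1, 1.06 (SE 0.76) for Tlr4, 1.56 (SE 0.94) for Tlr5, 0.94 (SE 0.73) for Tlr7 and 1.32 (SE 0.75) for Tlr13. For the overlapping receptors other than Tlr8 they were 0.55 (SE 0.72) for Tlr2, 0.65 (SE 0.82) for Tlr3, 0.79 (SE 0.84) for Tlr6 and 0.06 (SE 0.96) for Tlr9. Each of these values was under 2 SE. The scale depends on its markers, since Csf1r, the receptor of the growth factor on which microglia depend and 1 of the 15, had a ratio of the means, AAV-A2A to AAV-GFP, of 2.35 and P2ry12, a receptor of homeostatic microglia, was at 0.897. Both were singled out after their values were seen.

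**Figure D3:**
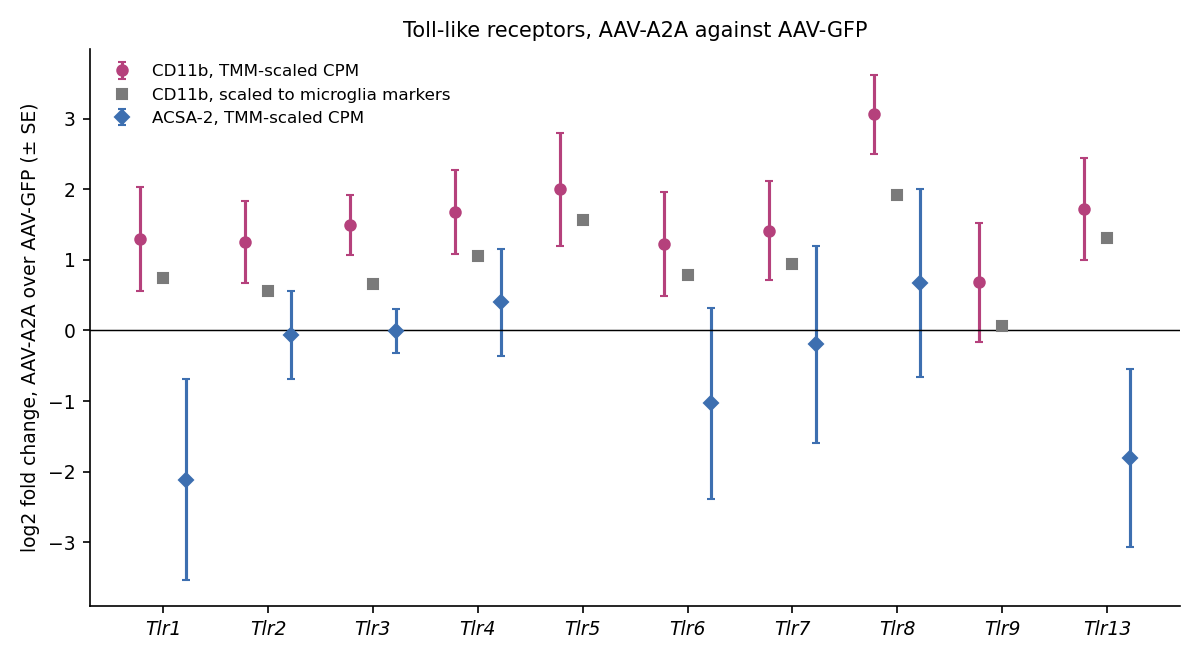
Log2 fold change of each receptor, AAV-A2A over AAV-GFP, in the CD11b fraction on TMM-scaled counts (pink, ± SE), in the CD11b fraction scaled to microglia markers (grey, drawn without errors) and in the ACSA-2 fraction (blue, ± SE), where Tlr5 and Tlr9 were not fitted. The pink values run from 0.68 to 3.06 and the blue values from -2.11 to 0.67.

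**Figure D4:**
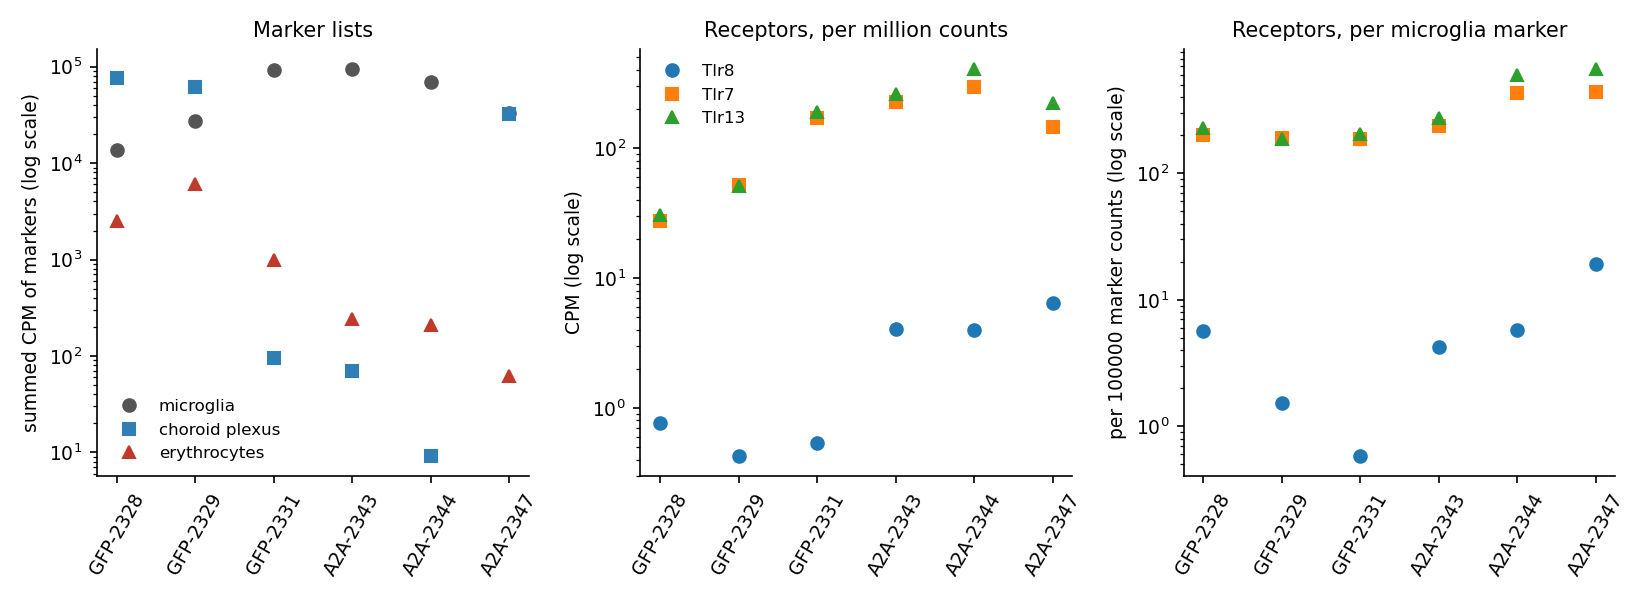
The 6 CD11b libraries by summed CPM of microglia, choroid plexus and erythrocyte markers (left), by CPM of Tlr8, Tlr7 and Tlr13 (middle) and by counts of these receptors per 100000 microglia marker counts (right), all on log axes. Tlr8 in CPM is at 0.422 to 0.769 in the AAV-GFP libraries, while Tlr7 and Tlr13 in CPM are lowest in GFP-2328. Per marker count Tlr8 overlaps between the vectors.

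The genes around the receptors were read from lists of 91 pathway genes. In the fraction comparison 45 of 88 tested genes were called higher in CD11b and 4 lower in AAV-GFP animals, and 60 of 87 higher and 4 lower in AAV-A2A animals (edgeR). Over all tested genes the shares were 13% higher and 12.7% lower with AAV-GFP and 25.2% and 21.4% with AAV-A2A, and the counts of each list are to be read against these. Of the 11 transcription factors 10 and 9 were called higher, and of the 8 adaptors 4 and 7. The chaperone and cofactor list, in which Unc93b1 was the most abundant in the CD11b libraries (1424 ± 1337 CPM with AAV-GFP and 2660 ± 991 CPM with AAV-A2A, SD, n = 3), had 6 and 7 of 11 called higher and none lower. Of the 6 endosomal proteases, which cleave the endosomal receptors into their active form, 4 were higher in each comparison, and 1 was lower in AAV-A2A animals. Of the 18 kinases and ubiquitin enzymes 6 and 13 were higher, of the 11 inhibitors 4 and 7, with 1 lower in each. The induced targets had 10 of 14 and 9 of 13 tested genes higher, and the endogenous ligands 1 and 3 of 8 higher and 3 and 2 lower.

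Between the vectors, edgeR called none of these genes in either fraction. In simulated counts with the spread of the CD11b libraries, edgeR called 0 of 187 genes given a log2 FC of 2 in either direction. At a log2 FC of 4 it called 124 of 195. The 0 calls in the CD11b fraction therefore do not show that changes of a few fold were absent. In the ACSA-2 fraction 79 were tested, of which 7 had an unadjusted p under 0.05 with edgeR, where 13% of all tested genes had, and DESeq2 and limma-voom called 0. In the CD11b fraction 89 were tested, of which 13 had an unadjusted p under 0.05 with edgeR, where 16% of all tested genes had. There limma-voom called 0 and DESeq2 called 1, Traf6, where DESeq2 called 2.9% of all genes, so the list did not hold more calls than its background. Traf6 was at 16.2, 12.0 and 20.6 CPM with AAV-GFP and at 37.8, 56.9 and 41.7 CPM with AAV-A2A. Its groups did not overlap, with a log2 FC of 1.48 (edgeR, adjusted p = 0.28) or 1.49 (SE 0.43, DESeq2, adjusted p = 0.034).

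The medians of the lists in the CD11b fraction were 0.87 for the kinases and ubiquitin enzymes (18 of 18 positive), 0.72 for the transcription factors (9 of 11), 0.69 for the adaptors (8 of 8), 0.53 for the inhibitors (6 of 11), 0.41 for the proteases (5 of 6) and 0.34 for chaperones and cofactors (9 of 11), where the median of all tested genes was -0.05. The endogenous ligands were at -0.04 (4 of 8) and the induced targets, cytokines, chemokines and enzymes made after receptor signalling, at -0.48 (4 of 15). The microglia markers had a median of 0.53 (14 of 15 positive, 0 called by edgeR), and their part in the medians of these lists was not tested. In the ACSA-2 fraction the medians lay between -0.16 for the inhibitors and 0.31 for the transcription factors, apart from the induced targets at 1.06 (8 of 9 positive) and Tlr12 at -1.17, where the median of all genes was 0.02. Of the 16 listed targets only 9 passed the filter there and 0 were called. Il1a and Ccl4, the most abundant targets in the CD11b libraries, were at 0.025 to 1.84 and 1.60 to 6.34 CPM in the ACSA-2 libraries, so this median rests on few reads.

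The most abundant genes of the lists in the CD11b libraries, given as mean ± SD of 3 libraries with AAV-GFP and AAV-A2A, put the receptors on a scale. Ctsd and Ctss, lysosomal and endosomal proteases, were at 7046 ± 5187 and 5988 ± 4991 CPM with AAV-GFP and at 9262 ± 3120 and 8034 ± 5709 CPM with AAV-A2A. Fos and Jun, subunits of the transcription factor AP-1, were at 4191 ± 1233 and 3210 ± 1107 CPM and at 4624 ± 1601 and 4714 ± 888 CPM. Hsp90b1, a chaperone of the receptors, was at 1313 ± 129 and 1040 ± 207 CPM. Of the adaptors, Myd88 was at 119 ± 49.2 and 158 ± 65.1 CPM, and Pik3ap1, which couples receptors to phosphoinositide 3-kinase, at 116 ± 94.1 and 437 ± 180 CPM. Irak1 and Irak2, kinases recruited by Myd88, were at 119.9 ± 36.5 and 83.5 ± 55.5 CPM and at 131 ± 4.35 and 166 ± 61.8 CPM. Nfkbia, which holds NF-kB in the cytoplasm, was at 1847 ± 638 and 1075 ± 600 CPM, and Socs3, an inhibitor of cytokine signalling, at 512 ± 191 and 1065 ± 306 CPM. Of the ligands, Hspd1 was at 81.9 ± 26.9 and 54.9 ± 11.1 CPM and S100a9 at 91.5 ± 92.1 and 42.4 ± 34.8 CPM. Of the targets, the cytokine gene Il1a was at 298 ± 104 and 324 ± 111 CPM and the chemokine gene Ccl4 at 291 ± 134 and 157 ± 31.9 CPM. Among the genes named here, all AAV-A2A libraries were above all AAV-GFP libraries for Pik3ap1, Jun and Socs3, as for 12.6% of all tested genes. Tlr11, a receptor of microbial profilin, was in the CD11b table alone and reached at most 0.773 CPM.

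The genes whose levels were most like those of Tlr8 over the 6 CD11b libraries, by Pearson's r of log2 CPM among 11149 genes with a mean of at least 5 CPM, were Tnip1 (r = 0.99), Psap (0.99), Tnpo3 (0.99), Smurf2 (0.99) and Tmtc4 (0.99), and 284 genes had r over 0.9. The 6 points share 2 groups that differ in Tlr8, so this likeness is a description. Psap, the precursor of saposins of the lysosome, was at 3063, 2849 and 3166 CPM with AAV-GFP and at 5006, 5145 and 5442 CPM with AAV-A2A, and Tnip1, an inhibitor of NF-kB signalling, was at 11.9, 10.6 and 11.9 CPM and at 21.6, 21.5 and 22.6 CPM. Among the receptors r with Tlr8 was highest for Tlr3 (0.81), followed by Tlr4 (0.72), Tlr13 (0.71) and Tlr5 (0.71), and lowest for Tlr9 (0.36).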

How the data were processed

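The deposited values are raw read counts per Ensembl gene, made by the authors from single-end SMART-Seq v4 libraries without molecular identifiers: trimming with cutadapt 1.10, mapping to mm10 (GRCm38) with STAR 2.5.3 and counting of uniquely aligned, unambiguous reads with htseq-count 0.6.1p1. The strand setting is not given in the sources used here. Libraries were grouped by the sample labels, 3 per fraction and vector. Each comparison was fitted over all genes with edgeR 4.0.16 (quasi-likelihood test, TMM, filterByExpr, robust) in R 4.3.3, and genes were called where the p adjusted after Benjamini-Hochberg was under 0.05 and the log2 FC beyond 0.32 in either direction. Alternatives were DESeq2 1.42.0, limma-voom (limma 3.58.1), other scalings, no filter, a fit of all 12 libraries and each library left out. Scaling to microglia markers and splits by Ttr were added after seeing the data. The scripts were tested on simulated data. Exon lengths are from GENCODE on GRCm38, promoters from RefSeq. The receptors and lists were chosen with earlier results of these data known. Named genes were the receptors, Adora2a, genes of a pathway list called between vectors or with the 2 highest CD11b levels, the most abundant gene of a marker list and the 5 genes most like Tlr8.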

Additional observations from a re-analysis of the deposited data

Results flagged for a closer look

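Tlr12, a receptor of microbial profilin listed beside the 10 receptors, had log2 FC of opposite sign in the fractions. The signs were also opposite for Tlr1 (-2.11 and 1.29), Tlr6 (-1.03 and 1.22) and Tlr13 (-1.80 and 1.72), and for Tlr2, Tlr3 and Tlr7 with smaller values in ACSA-2. In the ACSA-2 libraries it was at 4.98, 7.92 and 10.1 CPM with AAV-GFP and at 2.83, 2.91 and 4.50 CPM with AAV-A2A (log2 FC -1.17, SE 0.45, edgeR, adjusted p = 0.29). In the CD11b libraries it was at 6.35, 14.0 and 33.7 CPM and at 65.9, 80.1 and 41.0 CPM (log2 FC 1.79, SE 0.63, edgeR, adjusted p = 0.29). All AAV-A2A libraries were below the AAV-GFP libraries in the first fraction, as for 10.9% of its tested genes. They were above them in the second, as for 12.6%. In each vector group the CD11b libraries with Ttr over 1% held the lowest Tlr12 levels. The difference between the fractions was not tested, and neither change passed the adjustment over all genes. Groups of 3 libraries are too small for the search for single outlying libraries, which was not made.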

How the results depend on the processing

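No paired analysis was possible because the replicate numbers of the labels are shared by no 2 groups. The count of 0 receptors called in the ACSA-2 fraction held under every alternative run, and between fractions in AAV-A2A animals 6 or 7 of the 7 receptors were called higher in CD11b under each alternative. In AAV-GFP animals leaving out libraries gave 2 to 6 of the 7 (6 in the full fit), and the fits that gave 2 also called fewer of all genes higher. In the CD11b fraction the number of pathway genes called was 1 with DESeq2 and 14 with the libraries of Ttr over 1% alone, a fit of 3 libraries that called 2224 of 19551 genes (0 in the fit of 6), and 0 with each library left out. The number of all genes called in the ACSA-2 fraction was 553, 1277 with DESeq2 and 156 in the fit of all 12 libraries.

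Signs turned for receptors with log2 FC near 0 or few counts in the ACSA-2 fraction. Tlr2 (-0.06) was at 0.0034 without scaling beyond library totals and at 0.016 with limma-voom, and with libraries left out it ranged from -0.41 to 0.74, Tlr3 from -0.45 to 0.23, Tlr4 from -0.035 to 0.85, Tlr7 from -1.75 to 0.42 and Tlr13 from -2.34 to 0.15, none of them called. Tlr3 between fractions in AAV-GFP animals (-0.47) was at 0.26 without the CD11b libraries of Ttr over 1%. The cause was not tested. In the ACSA-2 fraction 8 of the 10 receptors had under 3 CPM in every group mean, at a depth like that of the CD11b libraries, so their values rest on few reads.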
